A study of Homo sapiens with 30 samples.

Results

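The regions described here are narrow sites of Polycomb repressive complex 1 (PRC1) that lie away from the ends of protein-coding genes in wild-type human neural progenitor cells. They were 596 of the 4255 regions that the authors' consolidated file holds on chromosomes 1 to 22, X and Y (14%), and 347 of them lay inside the body of a protein-coding gene and 249 between genes. A region was taken when it was narrower than 5000 bp, overlapped a RING1 peak of replicate set A and none of replicate set B, and lay more than 2 kb from both annotated ends of every protein-coding RefSeq gene. Of all consolidated regions, 83.3% met the RING1 condition and 20.3% the distance condition.

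RING1 and RNF2 are paralogous ubiquitin ligases at the catalytic core of PRC1. Either one, paired with a PCGF partner, places a single ubiquitin on a lysine near the end of histone H2A. Variant forms of the complex, such as those with KDM2B or with L3MBTL2, MGA and E2F6, reach CpG-rich promoters without prior histone methylation, whereas canonical forms with CBX proteins bind the methyl mark left by Polycomb repressive complex 2. In mammalian cells the broadest PRC1 domains cover silenced developmental genes, and many further CpG islands carry lower amounts.

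The series used the established human embryonic stem cell line H9, turned into a neural progenitor monolayer and edited with Cas9 at RING1 and RNF2. In CUT&RUN a nuclease tethered to the antibody cuts out the DNA beside the bound protein, and 30 such libraries were labelled. The values below come from wild-type cells, which carry no edited allele, with 2 anti-RING1 and 2 anti-RNF2 libraries. These gave 4 peak lists, 1 list per antibody in each of the sets A and B, and the labels tie neither set to a replicate number. The edited genotypes (RING1+/ms, RING1ms/ms, RING1-/- and RNF2ms/ms), the H2AK119ub1 libraries and the IgG libraries were not analysed here. All values describe 1 cell line, and because peak lists hold no expression, the neural progenitor label was not checked against marker genes. Transcript starts were not looked up on chromosome 8, so each share at a start is over regions on the other chromosomes.

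The peak lists differed in length. RING1 had 12891 peaks (set A) and 659 peaks (set B), and RNF2 had 16263 (set A) and 5901 (set B). Read depth is unknown for these libraries, so a peak missing from the RING1 list of set B is not evidence that RING1 was absent. The consolidated file could be rebuilt from the lists: touching or overlapping peaks of all 4 lists merged into 19856 regions, and 4256 of these held 1 antibody in both sets. All 4255 consolidated regions matched one of them, with a start 1 base earlier. Since the rule bars RING1 of set B, every member carried an RNF2 peak in both sets (596 of 596). The members were thus chosen by their RING1 and RNF2 peaks, and the strength of these peaks is given as a description with no test.

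Inside genes, many members lay at a transcript start within the interior of the annotated gene, though a smaller share than of all consolidated regions. Of the 329 gene-body members looked up, 184 (55.9%) overlapped a window from 250 bases before to 50 bases after a start of a protein-coding transcript in the RefSeq promoter table, beside 69.3% of all consolidated regions. The share was 42.5% over RNF2 peaks of set A that met a RING1 peak of set A. It was 19.3% over RNF2 peaks of set B that met no RING1 peak of set B. The width and distance limits were the same, but the RING1 conditions differ. Widths differ too: counted with intergenic ones, the median was 1921 bp for members, 1096 bp for these peaks of set A and 579 bp for those of set B. The part of each difference in these shares was not tested. In 182 of the 184 the start belonged to the gene that held the region. The table lists no other start for 47 of the 179 genes concerned. The windows upstream of the start are shown for 5 of the 179 genes, chosen by the worse of their RNF2 ranks in sets A and B. Only gene-body members that hold a whole start window of their gene could be shown. MAFG, ahead of NAV2 in rank, is therefore not among them. The printed stretches run 5′ to 3′ on the transcribed strand for the 250 bases before the start (RefSeq, GRCh38.p14), with each CpG in capitals.
SLC25A28: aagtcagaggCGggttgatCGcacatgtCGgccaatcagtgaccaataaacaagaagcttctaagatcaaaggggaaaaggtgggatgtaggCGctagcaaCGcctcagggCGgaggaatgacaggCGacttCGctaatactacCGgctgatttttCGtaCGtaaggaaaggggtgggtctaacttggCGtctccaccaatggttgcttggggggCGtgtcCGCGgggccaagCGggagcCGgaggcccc
CDK5RAP3: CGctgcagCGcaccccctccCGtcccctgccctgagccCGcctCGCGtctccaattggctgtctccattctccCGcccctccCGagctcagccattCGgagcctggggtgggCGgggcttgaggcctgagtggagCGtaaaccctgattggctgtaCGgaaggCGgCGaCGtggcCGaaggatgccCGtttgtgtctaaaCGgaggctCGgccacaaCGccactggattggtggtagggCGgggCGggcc
ZNF444: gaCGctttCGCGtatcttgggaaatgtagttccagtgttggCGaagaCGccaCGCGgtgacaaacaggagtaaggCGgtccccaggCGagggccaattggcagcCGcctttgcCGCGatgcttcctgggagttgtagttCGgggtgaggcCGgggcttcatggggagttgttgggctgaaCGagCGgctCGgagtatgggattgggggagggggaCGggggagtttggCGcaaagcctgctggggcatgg
THNSL1: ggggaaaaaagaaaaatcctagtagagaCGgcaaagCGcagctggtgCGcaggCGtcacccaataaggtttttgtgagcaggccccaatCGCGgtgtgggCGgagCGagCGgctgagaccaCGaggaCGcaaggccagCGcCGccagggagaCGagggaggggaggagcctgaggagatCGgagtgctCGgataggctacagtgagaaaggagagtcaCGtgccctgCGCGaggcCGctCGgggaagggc
NAV2: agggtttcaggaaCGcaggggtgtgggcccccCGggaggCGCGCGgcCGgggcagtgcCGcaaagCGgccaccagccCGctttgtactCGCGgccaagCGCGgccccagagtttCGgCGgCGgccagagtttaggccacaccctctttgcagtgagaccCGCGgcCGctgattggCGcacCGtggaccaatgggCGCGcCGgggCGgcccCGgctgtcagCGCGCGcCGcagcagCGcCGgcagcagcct

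The stretch of SLC25A28 lies at chr10:99620440-99620689 on the minus strand, holds 17 CpG and is 56.8% G and C. For CDK5RAP3 it lies at chr17:47970863-47971112 on the plus strand, with 22 CpG and 68% G and C. The ZNF444 stretch is chr19:56141037-56141286 on the plus strand, with 19 CpG and 62.4% G and C. Both remaining stretches are on the plus strand, at chr10:25016362-25016611 for THNSL1 with 21 CpG and at chr11:19712587-19712836 for NAV2 with 32 CpG. The NAV2 stretch is the richest of these 5 in CpG and in G and C (74%).

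Between genes, the distance rule leaves only non-coding genes and pseudogenes as annotations a member can meet. A start window of a long non-coding RNA (lncRNA) was overlapped by 53 of the 243 intergenic members looked up (21.8%), against 20.8% of all consolidated regions. The share at such a window was 16.9% over intergenic RNF2 peaks of set A with RING1 of set A. It was 8.49% over those of set B without RING1 of set B. The peaks of both comparisons were narrower than members, as given above, and the part of width was not tested. A region of median width would meet such a window at 0.809% of the intergenic bases more than 2 kb from coding ends. Any other RefSeq gene end within 2 kb was found for 38.1% of members, 24.2% inside genes and 57.4% between genes, against 36.3% of all consolidated regions. The stretches before the starts of 3 of these lncRNA genes are shown, chosen by the same ranks among intergenic members that hold a whole lncRNA start window.
LOC124901085: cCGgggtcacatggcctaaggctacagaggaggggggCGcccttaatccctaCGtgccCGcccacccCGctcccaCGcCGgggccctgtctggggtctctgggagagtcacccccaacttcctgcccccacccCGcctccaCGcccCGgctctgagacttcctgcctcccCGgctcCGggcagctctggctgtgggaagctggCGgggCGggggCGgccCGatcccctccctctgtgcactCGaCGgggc
LOC100132249: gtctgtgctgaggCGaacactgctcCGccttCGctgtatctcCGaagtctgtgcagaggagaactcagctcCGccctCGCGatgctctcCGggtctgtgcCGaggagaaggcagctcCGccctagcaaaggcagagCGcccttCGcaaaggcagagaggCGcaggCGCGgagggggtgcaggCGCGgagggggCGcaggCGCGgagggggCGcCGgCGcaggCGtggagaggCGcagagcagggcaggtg
LOC105378629: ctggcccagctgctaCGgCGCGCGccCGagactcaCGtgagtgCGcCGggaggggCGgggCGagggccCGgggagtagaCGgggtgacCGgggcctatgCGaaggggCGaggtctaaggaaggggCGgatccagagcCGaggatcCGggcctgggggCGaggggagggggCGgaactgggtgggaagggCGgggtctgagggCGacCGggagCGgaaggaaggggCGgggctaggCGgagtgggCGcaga

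LOC124901085 starts after chr5:139709652-139709901 on the plus strand, LOC100132249 after chr9:62838347-62838596 on the minus strand and LOC105378629 after chr1:32351396-32351645 on the minus strand. They hold 18, 25 and 27 CpG and are 73.2%, 70% and 74.8% G and C. The stretch of LOC100132249 contains short repeated units and its region lies among near-identical gene copies on chromosome 9, so its reads may belong to another copy, which was not tested.

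Each group was then sorted by the first annotation it met, in the order coding start, lncRNA start, tRNA gene within 2 kb, end of any other RefSeq gene within 2 kb. Among gene-body members 55.9% were at a coding start, 4.56% at an lncRNA start only, none near a tRNA gene, 4.26% at another gene end and 35.3% (116 of 329) at none of these. Among intergenic members none was at a coding start, which the distance rule largely fixes, 21.8% were at an lncRNA start, 10.3% near a tRNA gene, 25.9% at another gene end and 42% (102 of 243) at none. For comparison, 1866 regions of the same width and distance limits held both antibodies in set A and no peak in set B. Their gene-body share at a coding start was 39.6% (394 of 994), and their intergenic shares were 17.1% at an lncRNA start and 3.5% near a tRNA gene. Each of these 3 shares was lower than that of the members, but members were also wider, with a median of 1921 bp against 1103 bp, and the part of width was not tested. Narrow consolidated regions at gene ends, 2528 in all, were at a coding start in 80.6% of those looked up.

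**Figure D1:**
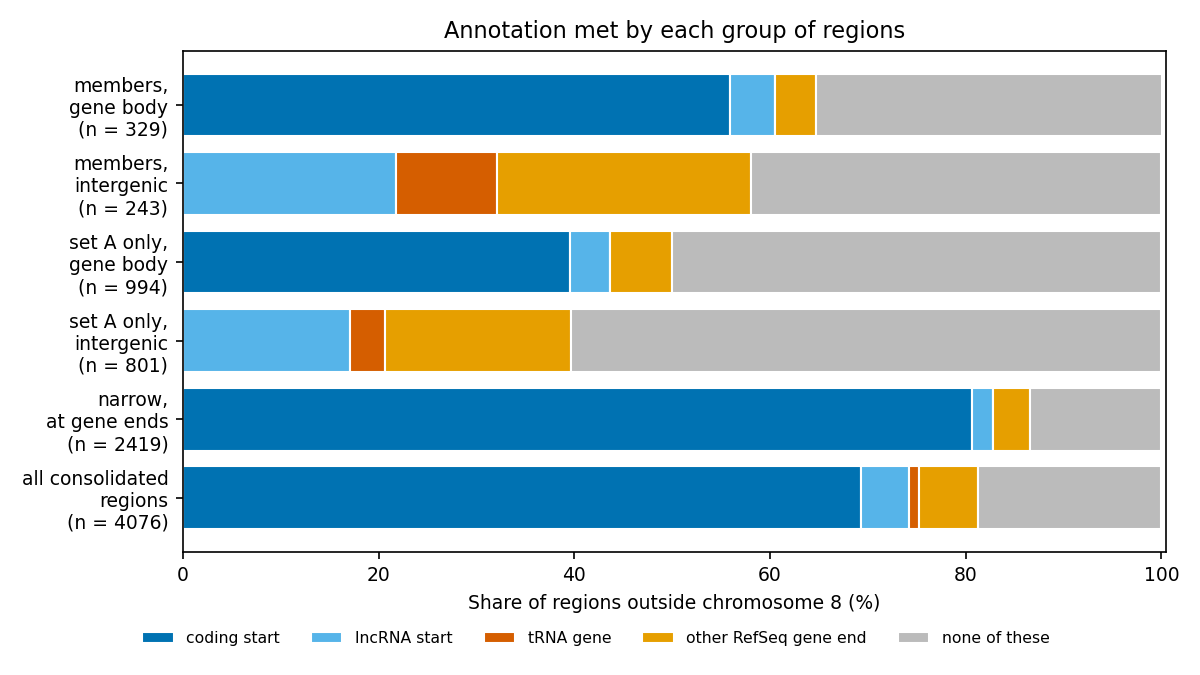
Bars show, for each group of regions looked up, the share (%) at a coding start window, at an lncRNA start window, near a tRNA gene, at another RefSeq gene end or at none of these, each region counted once. Coding starts take 55.9% of gene-body members and 39.6% of gene-body regions of set A only, and tRNA genes take 10.3% of intergenic members.

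The 182 members at a start of the gene that holds them lay in 179 genes, and in the other 2 the start was that of a neighbour (AVEN in CHRM5 and FBXL5 in FAM200B). Over the 179 genes, the start lay at a median of 20936 bp from the outer 5′ end of the gene, and between 2502 bp (SLC11A2, an iron and manganese transporter) and 919282 bp (CAMTA1, a calmodulin-binding transcription factor). The 184 regions were picked for overlapping a start window and had a median width of 1984 bp. How near their centres lie to a start is thus largely fixed beforehand. The centre was within 500 bp of the nearest coding start in 140 of 184 (76.1%) and downstream of it in 114 (62%), with a median offset of 107 bp and quartiles of -155 and 346 bp. Stretches of gene body more than 2 kb from gene ends give few such meetings: a region of the median width placed at their bases would meet a coding start window at 0.757% of them.

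**Figure D2:**
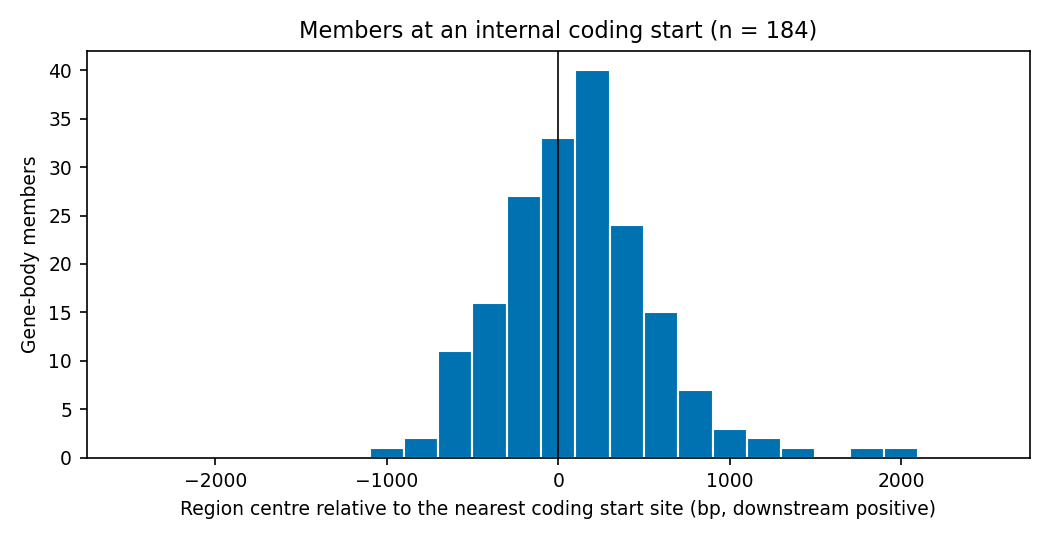
The histogram counts the 184 gene-body members at an internal coding start by the distance of the region centre from the nearest start (bp, positive downstream, bins of 200 bp). Most centres fall within 500 bp of the start, 140 of 184, with the median 107 bp downstream.

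Other starts of these genes were looked at in the same lists. The promoter table lists 218 further coding start windows of these genes. An RNF2 peak overlapped 34.4% of them (set A) and 14.2% (set B), and a RING1 peak 25.7% in set A. These shares were below or near those of all 22198 coding start windows, which were 49.9% for RNF2 in set A, 15.7% for RNF2 in set B and 37.4% for RING1 in set A. At the outer 5′ end itself, a peak of no list lay within 2 kb in 93 of the 179 genes (52%), against 41.1% of 15841 coding genes with a listed start. RNF2 of set B had a peak there in 26.3% of the 179 genes, against 20.3% of those coding genes. For RNF2 of set A the shares were 45.3% and 55.9%, and for RING1 of set A 38.5% and 44.7%. ZNF444, CDK5RAP3, MAFG, COL9A1, DPP10 and OPCML were among the genes whose outer 5′ end had no peak in any list. NAV2, ROBO3 and TRIM36 carried peaks of RING1 in set A and of RNF2 in both sets at the outer end as well as inside.

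The starts inside members were richer in CpG than the other starts of the same genes. Over 238 start windows in members, the median was 30 CpG per window, 71% G and C and a CpG observed to expected ratio of 0.848. Over 216 other windows of the same genes it was 8 CpG, 55.3% and 0.455. Starts in narrow gene-end regions had medians of 29 CpG, 68.3% and 0.863, close to those in members, and all coding starts had 21 CpG, 62.3% and 0.737. The lncRNA starts in intergenic members had medians of 26 CpG, 67.7% and 0.835, against 5 CpG, 50% and 0.286 over all lncRNA starts in the table. Windows share genes and overlap where starts lie close together, so these are descriptions.

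**Figure D3:**
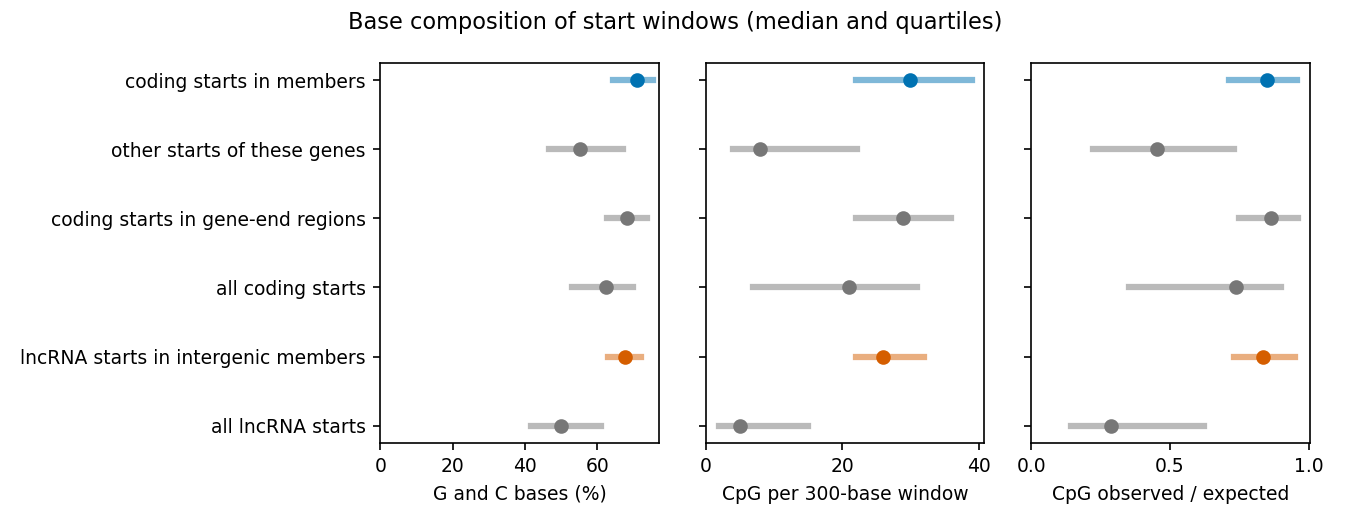
Points are medians and bars the quartiles, over start windows of 300 bases, of the G and C share (%), the number of CpG and the CpG observed to expected ratio. Starts in members (30 CpG for coding, 26 for lncRNA) lie near the starts of gene-end regions (29 CpG) and above the other starts of the same genes (8 CpG) and all lncRNA starts (5 CpG).

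Short motifs were counted on both strands of the same windows. The SP-type box GGGCGG was in 75.6% of coding start windows in members, against 40.3% of the other starts of the same genes, 78.8% of those in narrow gene-end regions and 56.3% of all coding starts. The E-box CACGTG, which MAX and MGA of variant PRC1 can bind, was in 10.5% of those in members, 5.56% of the other starts of the same genes, 11.4% of those in gene-end regions and 8.34% of all coding starts. In lncRNA starts of intergenic members CACGTG was in 11 of 65 windows (16.9%), against 5.4% of all lncRNA starts, and in lncRNA starts of gene-body members it was in 8.62%. In the same windows of intergenic members the ETS motif CCGGAAG was in 20%, against 5.83% of all lncRNA starts, and GGGCGG in 75.4%, against 25.5%. In coding starts CCGGAAG was in 8.82% of windows in members and 12.8% of all, and the NRF1 motif in 1.68% and 1.5%. The E2F motif TTCCCGCC was in 2.52% of coding start windows in members, against 6.45% of those in narrow gene-end regions and 3.98% of all. TATAAA was in 2.94% of windows in members and 9.47% of all coding starts. All of these but TATAAA contain a CpG, so their shares move with the CpG content given above, and TTCCCGCC can overlap GGGCGG read on the other strand. A match is not a bound site.

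The strongest gene-body members were a mixed set of genes. Each value is the authors' fold enrichment over background of the highest peak in the region. DENND1C encodes a DENN-domain activator of Rab GTPases, and its region (chr19:6475299-6477030) had a RING1 fold of 8.64 in set A and RNF2 folds of 9.76 (set A) and 6.07 (set B). It was not at an annotated start. In SLC25A28, for the mitochondrial iron importer mitoferrin-2, the region (chr10:99620171-99622346) had a RING1 fold of 7.25 in set A and RNF2 folds of 8.85 and 5.57 in sets A and B, at a start 38847 bp inside the gene. CDK5RAP3 encodes a partner of the UFM1 ligase, and its region (chr17:47970700-47971657) had the highest RNF2 fold of all gene-body members in set A, 10.6, with 5.12 in set B and a RING1 fold of 6.85 in set A. For RNF2 these 3 regions held ranks 2, 7 and 1 of the 347 gene-body members in set A and ranks 1, 3 and 10 in set B.

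Further members were among the 12 best placed by the worse of their RNF2 ranks. The ZNF444 region (chr19:56140494-56141490), in the gene of a SCAN zinc finger factor, had RNF2 folds of 8.47 (set A) and 4.68 (set B). THNSL1, named for its likeness to microbial threonine synthase, held a region (chr10:25015861-25017833) that also met a start of its neighbour ENKUR, with RNF2 folds of 6.74 (set A) and 5.38 (set B). In TRIM36, a TRIM ubiquitin ligase gene, the RNF2 fold was 6.06 (set A) and 5.74 (set B), the highest gene-body value of set B after DENND1C. MAFG, a small MAF bZIP factor, had RNF2 folds of 6.38 (set A) and 4.74 (set B). GATM, for the first enzyme of creatine synthesis, had 6.13 and 4.95, and ATP4A, for the catalytic subunit of the gastric proton pump, 6.45 and 4.56 in sets A and B. Of these 6 genes, ATP4A alone had its region away from every annotated start.

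The same 12 held PPFIA3, NAV2 and ROBO3. PPFIA3, for the presynaptic scaffold liprin-alpha-3, had RNF2 folds of 9.08 (set A) and 4.44 (set B) and a RING1 fold of 9.19 in set A (chr19:49127618-49129206). NAV2, for a neuron navigator protein, held a region at chr11:19711784-19714283, 366548 bp from the nearest gene end, with RNF2 folds of 7.16 (set A) and 4.42 (set B). In ROBO3, the receptor that guides commissural axons across the midline, the region covered 2 of 3 listed starts (chr11:124875911-124876894) and had RNF2 folds of 6.35 (set A) and 4.37 (set B). LMTK3, a kinase gene of the lemur tail family, had the highest RING1 fold of all members, 13.9 in set A, with RNF2 folds of 8.36 (set A) and 3.99 (set B). SSBP4, a gene for a single-stranded DNA-binding protein, completed the 4 highest RING1 values inside genes with 8.52 in set A and RNF2 folds of 9.59 and 3.98 in sets A and B. Set A placed these regions high, whereas set B placed LMTK3 and SSBP4 at ranks 88 and 90 among the 347.

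The farthest gene-body members lay in very long genes, at internal starts. DPP10, for an auxiliary subunit of Kv4 potassium channels, held a region 681180 bp from any coding gene end (chr2:115160834-115164600) that overlapped 3 of its 6 listed starts. Its RNF2 folds were 5.06 (set A) and 3.61 (set B). PDE4D, a cyclic AMP phosphodiesterase gene, held one at 627179 bp over 1 of 8 listed starts, with RNF2 folds of 3.35 in each set. OPCML, an IgLON cell adhesion gene, held one at 528011 bp with 3.73 (set A) and 3.34 (set B). Genes that hold a member had a median length of 77061 bp, against 24130 bp over all coding genes, and the part of gene length in these counts was not tested. The widest gene-body members were in RORA, a nuclear receptor gene (4956 bp), in CLYBL, for a mitochondrial lyase (4913 bp), and in KLF16, a Krüppel-like factor gene (4875 bp). Just above the width limit, the 3 nearest regions outside were 5001 bp near RHBG, 5024 bp near LOC124900252 and 5032 bp in SLC30A3. At the distance limit, members nearest to it lay 2037 bp (MIDEAS), 2047 bp (NPW) and 2083 bp (PPM1A) from a gene end, and the regions just outside lay 1988 bp (RHOU), 1965 bp (PLEKHH3) and 1960 bp (BCL9L) away.

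**Figure D4:**
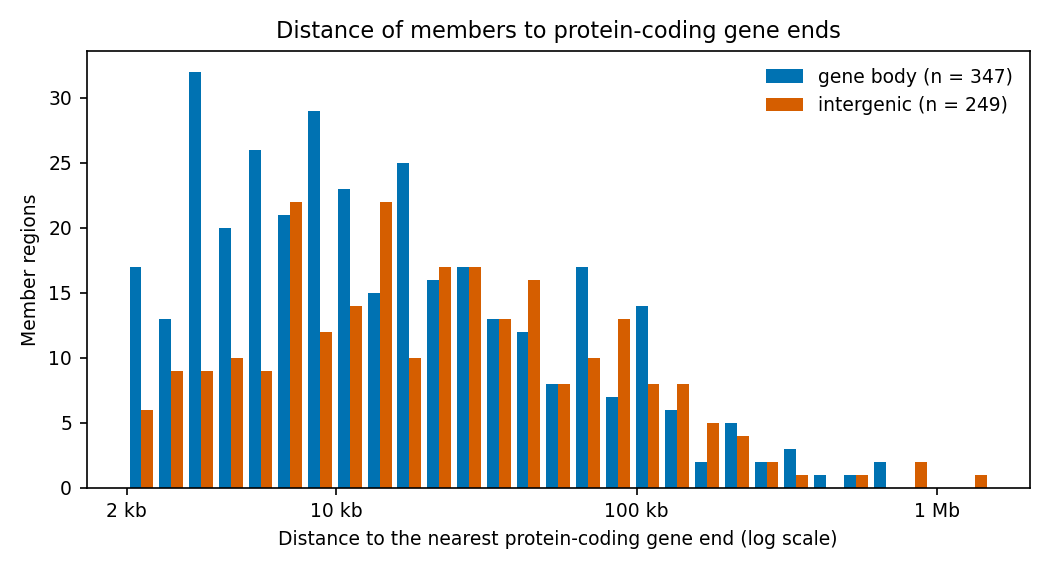
Member regions are counted by distance to the nearest protein-coding gene end (log scale), for 347 gene-body and 249 intergenic members. Medians are 11541 bp inside genes and 20862 bp between genes, and the farthest member is 1387247 bp away, nearest to TENM3.

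The highest RNF2 folds of set A lay between genes. The region nearest MEF2D, a MADS-box factor of neurons and muscle, had the highest RNF2 fold in set A of all members, 14.0, with 4.57 in set B and a RING1 fold of 9.54 in set A (chr1:156456321-156457847). Nearest to ZCCHC7, a gene for a zinc knuckle protein of RNA processing, the region had RNF2 folds of 12.8 (set A) and 5.19 (set B) and the highest intergenic RING1 fold, 10.4 (chr9:37078622-37080914). It lay within 2 kb of an end of the pseudogene EBLN3P and 37093 bp from a region of 17159 bp with RING1 of set B at PAX5. Nearest to NOTO, the notochord homeobox gene, the region had RNF2 folds of 9.63 (set A) and 4.90 (set B) (chr2:73174503-73177924). The regions near MEF2D and ZCCHC7 held the highest RNF2 folds of set A among intergenic members, and neither overlapped a coding or lncRNA start window. Starts of pseudogenes such as EBLN3P were not looked up.

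Some of the further intergenic members of high RNF2 rank in both sets had no annotation at hand. FOXK1, a forkhead factor gene, was nearest to a region with RNF2 folds of 7.56 (set A) and 4.62 (set B) at 39344 bp. LRFN3, for a synaptic adhesion protein, was 4121 bp from a region with 7.89 (set A) and 4.41 (set B). DEGS2, a sphingolipid desaturase gene, was 25118 bp from one with 7.45 (set A) and 4.36 (set B), and RPS6KA1, for the kinase RSK1, 42863 bp from one with 6.59 and 4.60. None of these 4 was within 2 kb of any RefSeq gene end. ZNF92, for a zinc finger protein, was nearest, at 107718 bp, to a region with 7.22 (set A) and 5.83 (set B). FAM229A was nearest to the region at the start of LOC105378629 printed above, which had RNF2 folds of 8.51 (set A) and 4.66 (set B). CXXC5, for a protein with a CpG-binding CXXC domain, was 24783 bp from the region at the start of LOC124901085, with RNF2 folds of 10.8 and 4.33 in sets A and B and a RING1 fold of 8.03.

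Several intergenic members fell among duplicated genes, where reads of near-identical copies can be placed on any of them. LOC107987020 on chromosome 9 was nearest to a region with RNF2 folds of 9.74 (set A) and 4.90 (set B), at the start of LOC100132249. LOC107987004 on the same chromosome was 770671 bp from a region next to DUX4L50, with 7.74 (set A) and 3.17 (set B). FAM90A1 was nearest to a region next to the pseudogene FAM86FP with a RING1 fold of 8.57 and RNF2 folds of 6.19 (set A) and 4.73 (set B). ADRA2C, the alpha-2C adrenergic receptor gene, was 186377 bp from a region next to the related pseudogene FAM86EP, with RNF2 folds of 6.53 (set A) and 4.39 (set B). The labels do not say how reads with several matches were treated, and the part of such reads in these values was not tested.

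Of the 3 intergenic members farthest from a coding gene, the one near LOC107987004 is given above, with the highest RNF2 fold of set A among them. TENM3, for a teneurin of synaptic matching, was the nearest coding gene to a region 1387247 bp away with RNF2 folds of 3.59 (set A) and 3.46 (set B). IGSF11, a cell adhesion gene, was 902984 bp from a region at the start of LINC03051 with 4.31 (set A) and 3.79 (set B). The widest intergenic members were nearest to CTAGE1 (4918 bp), to CBX5, which encodes the heterochromatin protein HP1 alpha (4871 bp), and to MSX2, a homeobox gene of limb and skull (4854 bp).

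Some intergenic members lay near tRNA genes, which RNA polymerase III transcribes. Whether a member covers the tRNA gene itself was not counted. Of the 249, 26 (10.4%) lay within 2 kb of a tRNA gene, against 1.53% of all consolidated regions, most of which lie at gene ends. Away from gene ends the shares were closer: 4.53% of all members, inside and between genes, against 6.74% of 89 regions over the width limit and 6.14% of 114 regions with no RING1 peak. A region of median width would lie within 2 kb of one at 0.0866% of the intergenic bases more than 2 kb from coding ends. Together with 1 gene-body member in FBXO31, these regions lay near 36 of 443 tRNA genes, of which 7 were for proline and 5 for leucine. Of the 27 members, 13 lay in the tRNA cluster of chromosome 6 between positions 26520042 and 27754544. ZNF184 was the nearest coding gene of 7 of them. Without chromosome 6, 13 of 222 intergenic members (5.86%) lay near a tRNA gene. Under the same width and distance limits the intergenic share was 4.94% over RNF2 peaks of set A with RING1 of set A. Over RNF2 peaks of set B without RING1 of set B it was 4.26%. These peaks were narrower than members, and the part of width was not tested.

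The tRNA-linked regions spanned much of the range of the other intergenic members. Near NARF, the region within 2 kb of TRX-CAT1-8 had RNF2 folds of 7.27 (set A) and 5.02 (set B) (chr17:82496546-82498240). Near ZNF213 on chromosome 16, the region within 2 kb of TRR-CCG1-3 and TRR-CCT3-1 had an RNF2 fold of 6.74 and a RING1 fold of 6.55 in set A (chr16:3149560-3153199). Near FCGR2A the region within 2 kb of TRL-CAG1-5 had an RNF2 fold of 7.11 in set A, whereas for that of TRT-CGT5-1 near ZNF184 it was 3.41. The median RNF2 fold over the 27 was 4.75 (set A) and 3.67 (set B), against 5.02 and 3.70 for the 223 other intergenic members. An RNF2 peak lay on 37% of all tRNA genes (set A) and on 12% (set B), and a RING1 peak on 22.3% in set A and 0.226% in set B. For the 368 tRNA genes more than 2 kb from coding gene ends these 4 shares were 29.6%, 9.51%, 16% and 0.272%. In the same order they were 18.9%, 7.29%, 14.5% and 0.962% of lncRNA genes and 56.2%, 21.3%, 44.2% and 1.32% of coding genes. These classes of gene differ in length. tRNA genes of one family are near-identical in sequence, so assignment among copies is uncertain.

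An end of a miRNA gene lay within 2 kb of 1.51% of members, against 2.8% of all consolidated regions. Whole miRNA hairpins were inside 5 members. Those of their mature miRNAs that the sequences at hand list are printed with the seed, bases 2 to 8, in capitals (RefSeq, GRCh38.p14).
hsa-miR-148a-3p: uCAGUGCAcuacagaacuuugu
hsa-miR-130b-3p: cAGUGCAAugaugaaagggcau
hsa-miR-130b-5p: aCUCUUUCccuguugcacuac
hsa-miR-4634: cGGCGCGAccggcccgggg
hsa-miR-4710: gGGUGAGGgcaggugguu
hsa-miR-3190-3p: uGUGGAAGguagacggccagaga
hsa-miR-3191-3p: uGGGGACGuagcuggccagacag
hsa-miR-3191-5p: cUCUCUGGccgucuaccuucca

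No seed was shared among these 8 miRNAs, and miRNAs missing from the sequences at hand were not looked up. MIR148A (chr7:25949919-25949986) lay in a region of 4700 bp that was 198603 bp from its nearest coding gene, NFE2L3, with RNF2 folds of 5.67 (set A) and 3.26 (set B). MIR130B (chr22:21653304-21653385) lay in the region nearest SDF2L1, with 4.99 (set A) and 3.20 (set B). MIR3190 and MIR3191 overlap on opposite strands of chromosome 19 inside BBC3, which encodes the cell death protein PUMA, in a region with RNF2 folds of 4.90 and 3.73 in sets A and B. MIR4634 lay in the 4854 bp region near MSX2, and MIR4710 in one near INF2 with 4.43 (set A) and 3.22 (set B).

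Over all members, the RNF2 folds of the 2 sets were only weakly related. RNF2 folds of the 2 sets had a Spearman rho of 0.249 and a Pearson r of 0.289 over 596 members (rho 0.233 over gene-body and 0.273 over intergenic members). RING1 and RNF2 of set A had a rho of 0.660 and an r of 0.731, and these lists share a set and so possibly a culture and depth. Over narrow gene-end regions the rho was 0.309 between RNF2 of sets A and B and 0.687 between RING1 and RNF2 of set A. The median folds of gene-body members were 4.25 for RING1 in set A, 4.67 for RNF2 in set A and 3.70 for RNF2 in set B. Those of intergenic members were 4.45, 4.97 and 3.70. RNF2 folds of set B ran over a short range, 2.93 to 6.07 over all members. The rule narrows the range of folds, since each member needs a peak in both RNF2 lists. It also leaves out regions with RING1 of set B, whose median RNF2 folds were 10.9 (set A) and 6.03 (set B). The rho over members is thus no measure of how the 2 lists agree as a whole.

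**Figure D5:**
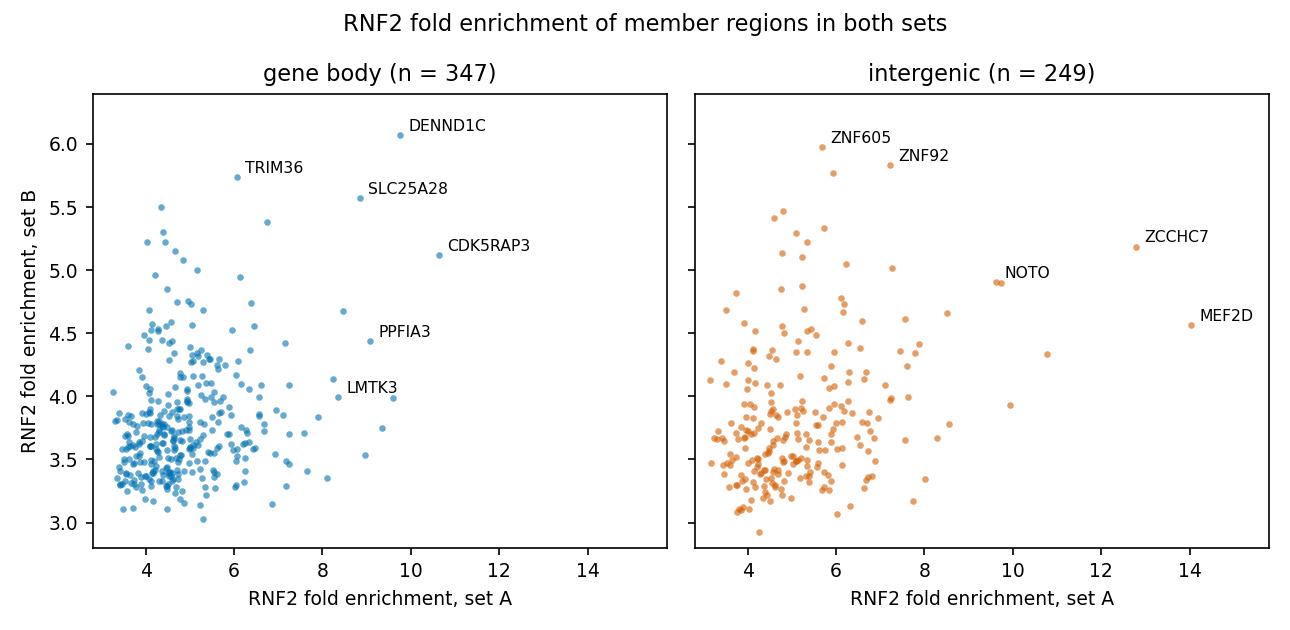
Each point is 1 member, with the authors' RNF2 fold enrichment in set A against set B, for 347 gene-body (left) and 249 intergenic members (right). Most points lie below 7 in set A and below 5 in set B, and the highest values are those of MEF2D in set A (14.0) and DENND1C in set B (6.07).

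Folds were also set against the list each peak came from. The lists differ in length and the rule required a peak in each, so the percentiles of different lists are not compared. The median fold of members stood at percentile 65.9 of the RING1 list of set A, 73.9 of the RNF2 list of set A and 51.0 of the RNF2 list of set B. Narrow gene-end regions stood at 68.0, 75.9 and 56.7. A −log10 q of 5 or more was found in 35.6% of members for RNF2 in set A (43.9% of all consolidated regions), in 16.3% for RING1 in set A (24.9%) and in 2.52%, or 15 regions, for RNF2 in set B (10.3%). Within a member, the RNF2 peak of set A covered a median of 96.3% of the region, the RING1 peak of set A 62.7% and the RNF2 peak of set B 47.4%. The width of a member thus mostly followed the RNF2 peak of set A. The median width was 2034 bp inside genes and 1789 bp between genes.

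Developmental transcription factor genes made up a small share of the genes at members. Each member was assigned to the gene that holds it or, between genes, to the gene with the nearest end, which gave 557 genes, 2.78% of all coding genes (1.68% as hosts and 1.15% as nearest genes). Of 455 genes on the lists of developmental factors, 34 (7.47%) were assigned at least 1 member, 16 as hosts and 19 as nearest genes. They took 36 members, 6.04%, against 1.9% of narrow gene-end regions. By family, SOX genes had 4 of 19, forkhead genes 6 of 50, homeobox genes outside the HOX clusters 6 of 159, and the list of zinc finger, nuclear receptor and related factors 12 of 95. PAX genes had 1 of 9, T-box genes 1 of 17, GATA genes 1 of 6 (GATA4) and lineage bHLH genes 3 of 65. No HOX cluster gene had one, 0 of 39. The list of neural progenitor genes had 3 of 12, which were SOX1, SOX2 and MSI1, an RNA-binding protein gene.

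Among the SOX genes, 3 were nearest to an intergenic member and SOX6 held one. SOX2, a pluripotency and neural stem cell factor, was 9331 bp from a region with RNF2 folds of 5.38 (set A) and 3.32 (set B) (chr3:181723767-181727831). SOX1, a factor of early neural cells, was 171953 bp from one with 4.76 (set A) and 3.27 (set B), and SOX4 4198 bp from one with 3.94 and 3.68. Inside SOX6, a factor of interneurons and cartilage, the region had 7.19 (set A) and 3.29 (set B) (chr11:16610310-16614697). TBX20, a heart T-box gene, was nearest to a region with 8.56 (set A) and 3.78 (set B). LMX1A, a factor of dopaminergic progenitors, held a region with 5.00 (set A) and 3.59 (set B), and POU2F2, a POU factor gene, held one with 5.22 and 3.67. FOXJ2 was nearest to a region with 5.92 (set A) and 5.77 (set B), among the highest values of set B. NR2E1, the TLX gene of neural stem cells, was 29769 bp from a region with 6.23 (set A) and 5.05 (set B), and RARG, a retinoic acid receptor gene, held one with 6.08 and 4.28. The nearest members to PAX5, ASCL4 and BHLHE23 had RNF2 folds of 4.51, 5.03 and 4.57 (set A) and of 3.17, 3.53 and 3.40 (set B). NFIC, a nuclear factor I gene, held one with 7.11 (set A) and 3.85 (set B).

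Signalling and neuronal lists had between 0 and 8 genes each with a member, beside 2.78% of all coding genes. Axon guidance genes had 6 of 75, neurotransmitter receptor genes 8 of 116, potassium channel genes 6 of 95, synaptic adhesion genes 4 of 64 and WNT pathway genes 3 of 60, which is 5% to 8% of each list. Genes on some of these lists are long, with a median of 337003 bp for synaptic adhesion genes against 24130 bp for all coding genes. TGF-beta and BMP genes had 3 of 67, FGF genes 2 of 42, Hedgehog and Notch genes 2 of 31 and collagen genes 2 of 44. RBPJ, the DNA-binding factor of Notch signalling, held a region with RNF2 folds of 6.06 (set A) and 3.53 (set B), and FSTL4, a follistatin-like gene, one with 4.65 and 4.34. Cadherin and protocadherin genes had 0 of 98, and calcium and sodium channel genes 0 of 41. WNT10A had 1 region inside the gene with RNF2 folds of 3.41 in each set and 1 outside with 5.84 (set A) and 4.07 (set B). CHRM5, a muscarinic receptor gene, held a region with 5.96 (set A) and 4.53 (set B) that met a start of AVEN, a neighbour on the other strand. In KCNQ1, for a heart potassium channel, the region (chr11:2698121-2701347) lay within 2 kb of an end of KCNQ1OT1, the antisense RNA of an imprinted cluster, with RNF2 folds of 4.93 (set A) and 3.98 (set B). COL9A1, a cartilage collagen gene, held a region at 1 of its 2 listed starts with 6.57 (set A) and 3.99 (set B). Cyclin-dependent kinase inhibitor genes had 0 of 7, keratin genes 0 of 149, C2H2 zinc finger genes named ZNF 14 of 509 with 23 members, and olfactory receptor genes 2 of 392, both of them nearest to tRNA-linked regions.

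Genes of Polycomb complexes themselves had members. Of 43 PRC1 genes 5 (11.6%) were assigned 6 regions, and of 23 PRC2 and H2A deubiquitinase genes 2 (8.7%) were assigned 2, beside 2.78% of all coding genes. PRC1 genes took 1.01% of members and 0.396% of narrow gene-end regions (10 of 2528). KDM2B, whose CXXC domain brings variant PRC1 to CpG islands, held a region with RNF2 folds of 5.71 (set A) and 3.88 (set B) (chr12:121535903-121538374). PCGF5, a PCGF partner of RING1 and RNF2, held one over 2 of its 4 listed starts with 3.25 (set A) and 4.03 (set B). BCOR, a subunit of the KDM2B complex, was nearest to 2 regions, 228697 and 360703 bp away, with 5.23 and 6.35 (set A) and 5.11 and 3.87 (set B). L3MBTL2, a subunit of the E2F6 complex, was nearest to a region at the start of EP300-AS1 with 6.03 (set A) and 3.58 (set B). BCORL1, the paralog of BCOR, was nearest to one with 4.51 and 3.74. AEBP2 and PHF19, which encode accessory subunits of PRC2, held regions with 3.52 and 4.63 (set A) and 3.48 and 3.66 (set B). BRCA1 was the 1 of 65 double-strand break repair genes with a member, at an internal start shared with NBR2, with 4.27 (set A) and 4.52 (set B).

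Members sometimes lay in runs. With a limit of 50 kb between neighbours, 76 members formed 31 runs of 2 or more, and 6 runs held 3 or more. Runs were not counted in other groups. Another consolidated region lay within 10 kb of 16.8% of members, against 12.9% of all consolidated regions and 11.1% of narrow gene-end regions. Away from gene ends it was 14% of regions with no RING1 peak and 27% of those over the width limit. SETD1B, a histone H3 lysine 4 methyltransferase gene, held 3 members within chr12:121797076-121812598, with RNF2 folds between 4.97 and 5.16 (set A) and between 3.40 and 4.35 (set B). LOC124900275 on chromosome 9 was nearest to 3 members and held a further 1 (chr9:129412672-129497333), with RNF2 folds of 6.30 to 7.24 (set A) and 3.34 to 4.19 (set B). RARA, a retinoic acid receptor gene, held 2, each at one of its listed starts, with 6.20 and 5.40 (set A) and 3.62 and 3.56 (set B). JAK3, a cytokine receptor kinase gene, held 2 away from listed starts with 8.24 and 5.54 (set A) and 4.13 and 3.55 (set B).

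A few members flanked regions that carried RING1 in set B. Of the 596, 25 (4.19%) lay within 50 kb of one, 7 inside genes and 18 between genes, against 2.81% of all consolidated regions without RING1 of set B. The share was 1.62% of narrow gene-end regions. Other groups away from gene ends had higher shares than members, 6.14% of 114 regions with no RING1 peak and 20.2% of 89 regions over the width limit. HAND1, a heart and neural crest bHLH gene, had a member 1303 bp from a 23613 bp region with RING1 of set B, with an RNF2 fold of 4.22 in set A against 13.3 in that wide region. MEIS2, a homeobox cofactor of HOX proteins, had a member 3772 bp from one, with 3.57 in set A against 14.0. NR4A2, a nuclear receptor gene of dopamine neurons, had one at 4283 bp with 6.87 against 12.3, and the MSX2 member lay at 7649 bp with 4.57 against 15.1. At VAX1, a homeobox gene of the ventral eye and forebrain, the member was 3141 bp away, nearer to an end of KCNK18, with 6.55 against 12.6. Over all 306 regions with RING1 of set B the median RNF2 fold of set A was 10.9, against 4.76 over all members. These regions are also wider, and the highest peak gives the fold. The direction of most pairs was thus set beforehand and says nothing about nearness. In 22 of the 25 pairs the member had the lower RNF2 fold of set A. In the other 3, near ZCCHC7 and inside DENND1C and PRSS16, the member's fold was higher than that of the region near it, 12.8 against 10.5, 9.76 against 9.14 and 7.91 against 7.70.

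Replicate support bounds these descriptions. Each antibody has 2 lists, RING1 of set B is absent by rule, and no test across replicates was made. The annotation has no exons, so whether a gene-body member lies in an exon or intron was not determined, and starts missing from the promoter table were not counted.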

How the data were processed

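The 4 wild-type RING1 and RNF2 lists are in broad peak format. The build was hg38, and MACS2 2.2.9.1, deepTools 3.5.2, Picard 2.8.1, SAMtools 1.9, bedtools 2.30.0 and BWA 0.7.17 are listed without roles, per the submitters' processing notes. Each deposited list comes from 1 antibody and 1 set, and peaks were taken as called per library. The fold per peak is the authors' ratio of signal over background, deposited with no control named in the sources used here. The significance per peak was deposited by the authors as −log10 of the q-value. The consolidated file holds coordinates only. Nothing in the labels places the 2 replicates in separate cultures.

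Overlap meant at least 1 bp, and the highest peak gave a region's fold. Distances ran from region edge to gene end of RefSeq GRCh38.p14 (20033 protein-coding and 39642 other genes). Coordinates are 1-based. The host gene was the smallest gene body that holds the region. Start windows came from the RefSeq promoter table (22198 coding and 12918 lncRNA windows), which covers 15842 coding genes. The overlap and distance steps were checked on simulated data.

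The members and the gene lists were chosen with earlier results of these data known, and the start-window and tRNA analyses were added after the data were seen, so counts are set beside a background with no test. Genes named are, separately inside and between genes, the 12 best by the worse of the RNF2 ranks in sets A and B, the 4 highest in RING1, the 3 widest and the 3 farthest members. Added to these are genes with 3 or more members, up to 4 per gene list and the 3 on each side of each limit. Others (CXXC5, CAMTA1, SLC11A2, RARA, JAK3, genes of miRNAs and tRNAs, genes beside regions with RING1 of set B) were chosen after their values were seen. Of list members the rule names, some are given by count only. The planned composition of whole regions needs a genome that was not at hand and was replaced by that of start windows. Python 3.11.15, pandas 2.3.3, SciPy 1.17.1 and matplotlib 3.10.9 were used.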

Additional observations from a re-analysis of the deposited data

How the results depend on the processing

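Alternatives moved the set mostly through peak strength and through which set was used. Widths of 3000 or 10000 bp and distances of 1 or 5 kb kept the number within 1.5 times, at 480, 670, 643 and 479 regions. A required overlap of 50% changed nothing, since peaks lie inside the merged regions by construction. With gene ends of all RefSeq genes 369 members were left (106 intergenic), of which by construction 0% lay within 2 kb of another gene end, and 0.971% of the intergenic ones met an lncRNA start. Peaks with −log10 q of at least 2 left 265 members, 155 inside genes and 110 between, with a median RNF2 fold in set A of 5.20. At 5 only 6 were left, 4 and 2, with a median width of 2136 bp, a median distance of 8950 bp, a fold of 7.79, 50% at other gene ends, 0% at developmental factor genes, 75% of the gene-body members at coding starts, 50% of the intergenic ones at lncRNA starts and 0% near tRNA genes. Median width was 1664 bp and 2075 bp under the 2 width limits, and median distance 21595 bp beyond 5 kb.

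Leaving out either set widened the set. Without set B, RNF2 peaks of set A with a RING1 peak of set A gave 2507 regions (1413 inside genes, 1094 between). Without set A, RNF2 peaks of set B with no RING1 peak of set B gave 2128 (1094 and 1034). The 2 settings thus also differ in their RING1 condition. Median width was 1096 and 579 bp, median distance 18547 and 23139 bp, the share at other gene ends 30% and 22.3%, and that at developmental factor genes 8.78% and 10.2%. The median RNF2 fold of set A was 4.27 without set B. In the same 2 settings, chosen for these shares after seeing the data, coding starts took 42.5% and 19.3% of gene-body regions, lncRNA starts 16.9% and 8.49% of intergenic ones and tRNA genes 4.94% and 4.26%. tRNA genes took 5.86% without chromosome 6. The cause of these shifts was not tested. Depth was not given, so the shorter lists of set B limit which regions could be called replicated. No paired analysis was possible because no test between groups was made and the lists carry no replicate number of the labels.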
